A study of Capra hircus with 6 samples.

Results

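The genes described here encode paracrine signals of the hair follicle and the proteins that receive or process them: HGF and its receptor MET, the KIT ligand KITLG and the pigment-cell factor MITF, and the endothelin axis of EDN1, ECE1, EDNRA and EDNRB. They were chosen by name, and each of the 8 matched 1 row among the 15944 genes of the deposited count table. RNA-seq was performed on secondary hair follicle dermal papilla cells (SHF-DPCs) of wild type Albas cashmere goats (Capra hircus), taken from the scapular skin of 3-year-old animals in anagen and grown as primary cultures to passages 4 to 7. The control group (3 libraries) grew without all-trans retinoic acid (ATRA), the active metabolite of vitamin A, and the ATRA-treated group (3 libraries) received it at 100 µM for 24 h. The methods state that the cells came from 3 animals, but no source used here says which library came from which animal, and all 6 libraries carry the same batch label.

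Dermal papilla cells signal to the epithelium and to the pigment cells of the hair bulb through secreted factors. HGF is made by mesenchymal cells and acts on MET, a receptor tyrosine kinase found mainly on epithelial cells. KITLG, also called stem cell factor, acts on the receptor KIT of melanocytes and mast cells, where KIT signalling acts on MITF, the master transcription factor of melanocytes. EDN1 is made as a precursor that the membrane protease ECE1 cuts into the active peptide endothelin-1, which acts on the G protein-coupled receptors EDNRA and EDNRB.

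Control libraries held 36887160 to 38012771 counts each and ATRA libraries 35532339 to 36870939. Levels are given as normalized CPM, which are counts scaled to the size of each library after edgeR's TMM normalization. A gene was called where edgeR's quasi-likelihood test, two-sided, gave an adjusted p under 0.05 and the absolute log₂ fold change (log₂FC) of ATRA over control was above 1. Among the markers of the labelled cell type, VIM and PDGFRA, general mesenchymal genes, had 19158 ± 876 and 865 ± 12.2 CPM in the control group (SD, n = 3). The papilla markers ACTA2, whose reads may be shared with other actin genes, VCAN and BMP4 were abundant there as well, with 6582 ± 462, 1641 ± 63.6 and 406 ± 18.7 CPM, and ACTA2 had 8.37 ± 0.829 CPM with ATRA. PROM1, ALPL and CORIN had no more than 1 count in any library. Of the 10 dermal papilla and mesenchymal markers tested, 8 were called lower and 0 higher, where 17.3% and 13.7% of all genes tested were. FGF7 and LEF1 were not called (log₂FC -0.23 and -0.54). SOX2 was not tested and had 5, 0 and 2 counts without ATRA and 10, 16 and 9 with it. The summed level of the 14 listed fell from 54836 to 57648 CPM in control libraries to between 2319.9 and 2419 CPM with ATRA. In control libraries most of that sum was COL1A1 (27440 CPM), VIM and ACTA2. In these bulk cultures, fewer cells of a type and less RNA per cell cannot be told apart. Of 3 retinoid-responsive genes tested, DHRS3 and RARB were called higher and STRA6 was not called (log₂FC 0.68, adjusted p = 0.262), with 86 to 128 counts of DHRS3 in control libraries and 18720 to 20093 with ATRA.

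The 3 ligand genes HGF, KITLG and EDN1 and the receptor gene EDNRA fell with ATRA, whereas MITF rose. MET was lower and ECE1 higher, both short of the threshold on size, and EDNRB was hardly detected in either group. Of the 7 genes that passed the filter on low counts, 4 were called lower and 1 higher, where 17.3% of all genes tested were called lower and 13.7% higher. All 3 ATRA libraries lay below all 3 control libraries for 5 genes and above them for 2, against 39.0% and 41.2% of all genes tested. Separation of the groups was therefore common among all genes, and the sizes of the changes are given with each gene.

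**Figure D1:**
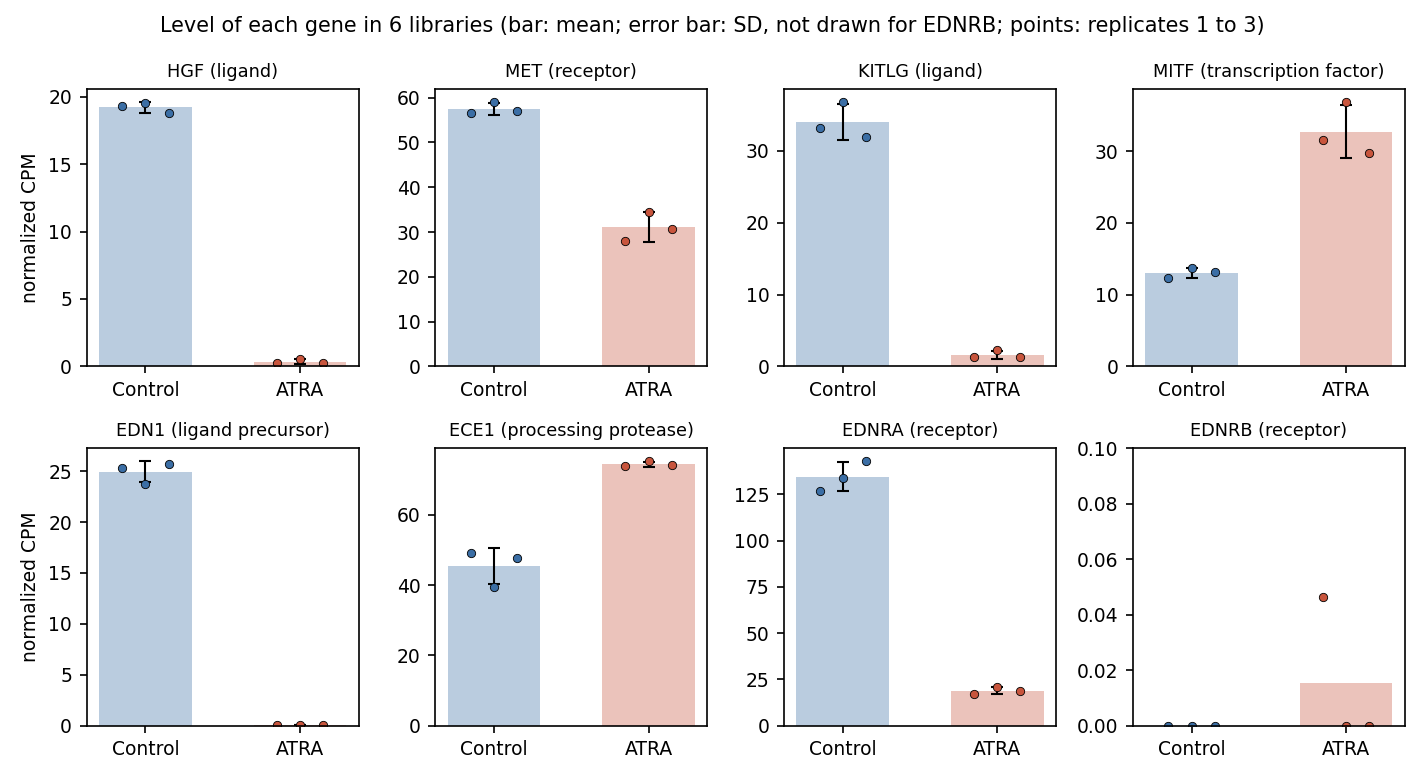
Normalized CPM (vertical axis, from 0, with its own scale in each panel) of the 8 genes without and with ATRA, with bars for the mean, error bars for the SD and points for the 3 libraries. HGF, KITLG and EDN1 were close to the axis in every ATRA library, EDNRA was at 14.1% of its control mean, MITF was higher in every ATRA library, and the single EDNRB point above 0 is 2 counts.

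HGF, the growth factor of the first axis, had 599, 632 and 603 counts in the control libraries and 11, 25 and 10 in the ATRA libraries. In normalized CPM these were 19.3, 19.5 and 18.8 without ATRA and 0.254, 0.567 and 0.242 with it. The groups were far apart, and ATRA replicate 2 held the highest of the treated values. The mean fell from 19.2 ± 0.392 to 0.354 ± 0.184 CPM (SD, n = 3 each), so that 1.85% of the control level was left. The log₂FC was -5.74 (standard error 0.186, adjusted p = 2.00e-15), at rank 135 from the lowest among 12588 genes. Without ATRA replicate 2 it was -6.26.

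MET, the receptor for HGF, had 56.5, 59.0 and 57.1 CPM in the control libraries and 28.0, 34.6 and 30.8 CPM in the ATRA libraries. Its groups did not overlap, and 54.1% of the control mean was left. The log₂FC of -0.89 (standard error 0.0770, adjusted p = 5.44e-09) was below 0 beyond the spread between libraries but did not reach -1. The 6 keratinocyte markers in the table, epithelial genes like those of the cells that respond to HGF, summed to 3.11 to 4.98 CPM in control libraries and 5.37 to 5.97 CPM with ATRA, and their part in the MET level was not tested. The higher sum is KRT10, with 3.17 ± 0.950 and 5.62 ± 0.334 CPM (not called), whereas KRT14 had 20, 14 and 10 counts without ATRA and 3, 0 and 0 with it, and KRT5 had 2, 7 and 3 against 0 in each. Within each library, the ratio of HGF to MET counts does not depend on scaling. On the log2 scale it was -1.58 ± 0.0287 in the control group and -6.52 ± 0.541 with ATRA (SD, n = 3 each). This difference of -4.93 had a p of 0.1 (exact permutation, two-sided, and 0.1 after adjustment over 3 ratios), below which 3 libraries against 3 cannot go.

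KITLG had 1030, 1190 and 1027 counts in the control libraries and 54, 98 and 57 in the ATRA libraries. The mean of KITLG was 34.0 ± 2.51 CPM without ATRA and 21.0-fold lower, 1.62 ± 0.528 CPM, with it (SD, n = 3 each). As for HGF, ATRA replicate 2 was the highest of the treated libraries, and no ATRA library came near a control library. The log₂FC was -4.39 (standard error 0.146, adjusted p = 6.31e-15), at rank 291 from the lowest, and -4.70 without ATRA replicate 2. The deposited table has a single row for KITLG, so its splice forms could not be separated.

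MITF moved the other way. It had 12.3, 13.7 and 13.2 CPM in the control libraries and 31.6, 36.8 and 29.8 CPM in the ATRA libraries, every one above every control library. The mean rose 2.51-fold, from 13.0 ± 0.687 to 32.7 ± 3.66 CPM (SD, n = 3 each). The log₂FC was 1.33 (standard error 0.0921, adjusted p = 1.99e-10), at rank 1191 from the highest. MITF has several promoters, and the gene-level counts do not tell its isoforms apart. Of 6 melanocyte markers, TYR, DCT, MLANA and SOX10 had no row under these names. The other 2, the melanosome genes PMEL and TYRP1, summed to 3.80 to 4.30 CPM in control libraries and 1.97 to 2.34 CPM with ATRA. TYRP1 had 1 count in all libraries together, so that nearly all of this sum is PMEL. Of 6 leukocyte and mast cell markers, PTPRC, CPA3 and MS4A2 had no row under these names. The other 3 had a sum of 5.73 to 8.78 CPM in control libraries and 30.7 to 32.4 CPM with ATRA. Nearly all of it was CD14, a monocyte receptor gene that was called higher (log₂FC 2.18), while CD3E and CSF1R had no more than 7 counts in any library. The part of these cell types in the MITF result was not tested. The log2 ratio of KITLG to MITF counts within a library went from 1.38 ± 0.0867 to -4.37 ± 0.304 (SD, n = 3 each, two-sided p = 0.1 by exact permutation, as low as this design goes).

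EDN1, the endothelin-1 precursor, had 786, 768 and 825 counts in the control libraries and 1 count in each of the 3 ATRA libraries. The control level of 24.9 ± 1.03 CPM (SD, n = 3) thus stood against 0.0233 CPM with ATRA, where 1 count is 0.0227 to 0.0242 CPM. The summed counts were 2379 against 3. Scaled by the normalized library sizes, the control level was 1069 times that with ATRA, with a 95% exact interval from 365 to 5186. This interval covers counting error only. The fitted log₂FC of -9.87 (standard error 0.211, adjusted p = 4.43e-18) stood at rank 11 from the lowest of 12588 genes, and its size rests on those 3 counts. As the difference of mean log2(CPM + 1) it was -4.66. DESeq2 gave -10.08 with a standard error of 0.839, so the 0.211 is too small to be read as the precision of this change. EDN1 is best known as a product of endothelial cells. The endothelial marker genes PECAM1 and CDH5 had 0 counts in every control library, and the 5 endothelial markers in the table summed to 0.903 to 1.24 CPM there and 6.19 to 9.16 CPM with ATRA. Most of that difference is PECAM1, with 242, 340 and 206 counts with ATRA. TEK had 23, 22 and 14 counts without ATRA and 57, 50 and 39 with it (log₂FC 0.87, not called), CDH5 had 1 count in all ATRA libraries together, VWF 22 counts without and 31 with ATRA, and KDR 21 and 3.

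ECE1, which encodes the protease that completes the EDN1 peptide, had 49.0, 39.4 and 47.8 CPM without ATRA and 73.8, 75.1 and 74.0 CPM with it. The ATRA libraries lay above the control libraries and close to each other. The mean was 1.64-fold higher, with a log₂FC of 0.71 (standard error 0.0756, adjusted p = 8.85e-08) that missed the threshold on size. Scaled by library size only, ECE1 had a log₂FC of 1.19, past that threshold. The log2 ratio of EDN1 to ECE1 counts within a library was -0.86 ± 0.114 in the control group and -11.05 ± 0.0571 with ATRA (SD, n = 3 each, two-sided p = 0.1 by exact permutation, as low as this design goes), after adding 0.5 to each count.

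EDNRA, the receptor that prefers endothelin-1 and is typical of mesenchymal and smooth muscle cells, had 3945, 4322 and 4587 counts in the control libraries and 730, 926 and 780 with ATRA. The mean fell 7.11-fold, from 134.5 ± 7.89 to 18.9 ± 2.05 CPM (SD, n = 3 each), and the groups were apart. The log₂FC was -2.83 (standard error 0.0796, adjusted p = 2.39e-16), at rank 634 from the lowest. Of 4 smooth muscle and pericyte markers tested, 3 were called lower, where 17.3% of all genes tested were. The 6 listed summed to 516 to 537 CPM in control libraries and 16.6 to 18.5 CPM with ATRA. Most of that is CSPG4, with 381 and 14.4 CPM, and CNN1, with 141 and 2.91 CPM. DES had 16, 18 and 14 counts without ATRA and 3, 6 and 12 with it. MYH11 was not called (log₂FC -0.24), and RGS5 and MCAM had no more than 5 counts in any library. The part of these cell types in the EDNRA result was not tested.

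EDNRB, the receptor of melanocytes and their precursors that binds all endothelins, had 0 counts in 5 libraries and 2 counts in ATRA replicate 1. It did not pass the filter and was not tested. A floor of 3 counts is 0.0927 to 0.0967 CPM in a control library and 0.0680 to 0.0725 CPM in an ATRA library, so that EDNRB was not detectable above these levels in any library. A change in it could not be measured at this depth.

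**Figure D2:**
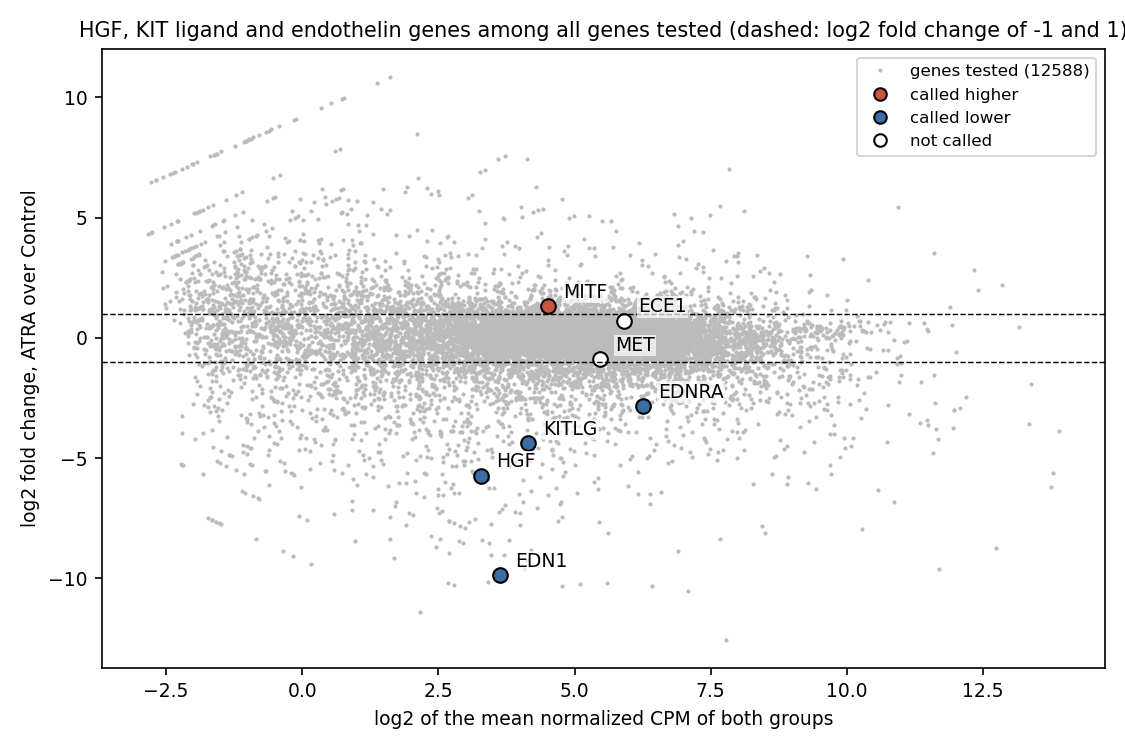
Log₂FC of ATRA over control (vertical axis) against the log2 of the mean normalized CPM of both groups (horizontal axis) for the 12588 genes tested in grey and 7 of the 8 genes in colour, with EDNRB left out because it was not tested. EDN1 lies near the lower edge of the cloud at -9.87, followed by HGF at -5.74, KITLG at -4.39 and EDNRA at -2.83, while MET and ECE1 lie between the dashed lines at -1 and 1.

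The scaling moved all genes together. The median log₂FC of all genes tested was 0.04 with TMM, 0.02 with RLE size factors, 0.11 with upper-quartile scaling and 0.52 with library size only. Relative to the median, ECE1 stood at 0.67 and MET at -0.92 under TMM and at 0.67 and -0.92 with library size only. EDNRA stood at -2.87 under both. From the lowest log₂FC to the highest, the order was EDN1, HGF, KITLG, EDNRA, MET, ECE1 and MITF, and neighbours in this order differed by more than the sum of their standard errors under TMM.

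**Figure D3:**
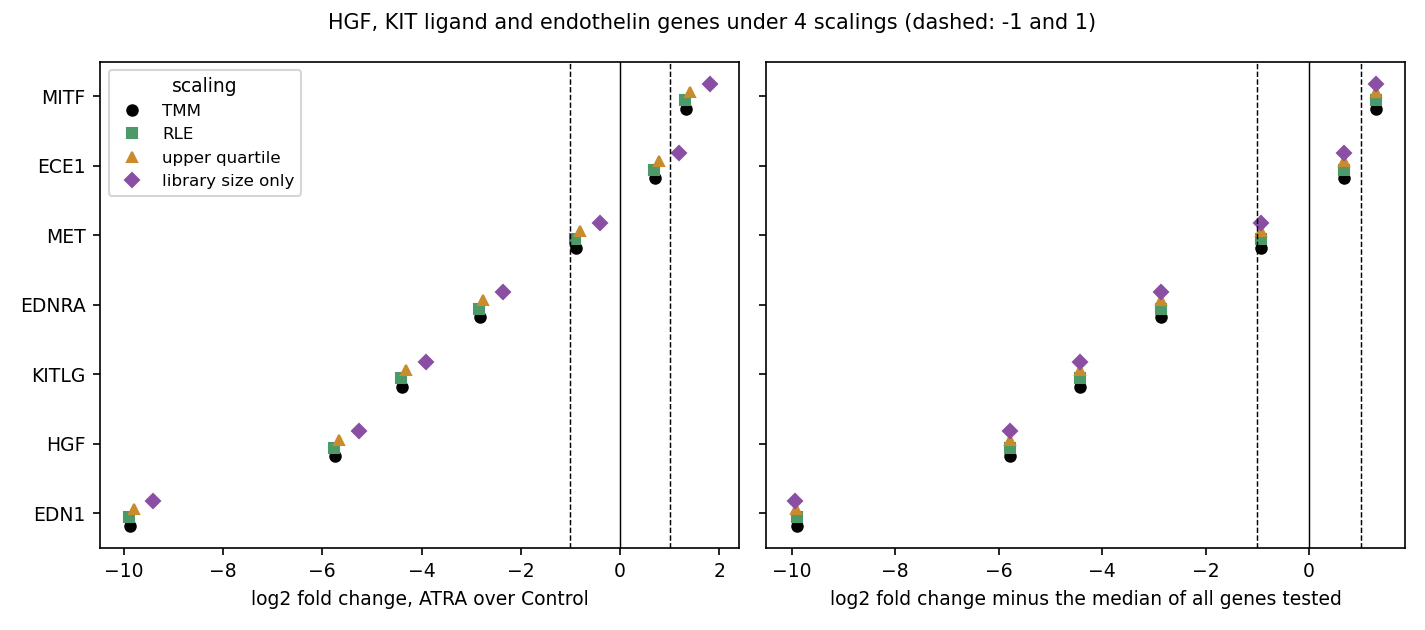
Log₂FC of 7 genes under 4 scalings (left) and the same values minus the median of all genes tested under that scaling (right), with dashed lines at -1 and 1. On the left, library size only shifts every gene to the right and carries ECE1 to 1.19, and on the right the 4 scalings nearly coincide for each gene.

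The 8 genes varied among themselves in how closely replicates agreed. In the control group the coefficient of variation ran from 2.04% for HGF to 11.4% for ECE1 among the 7 tested genes. With ATRA it was 52.0% for HGF and 32.7% for KITLG, the tested genes with the fewest treated counts after EDN1, and 0.949% for ECE1. ATRA replicate 2 was the highest ATRA library for 6 of the 7, all but EDN1. This library stood apart over all genes too, since a chi-square of its counts per degree of freedom was 19.2 and 17.9 against the other ATRA libraries and 5.16 between those. In the deposited KEGG annotation, 7 of the 8 genes (all but ECE1, which carries no pathway) belong to Pathways in cancer, and KITLG, MITF, EDN1 and EDNRB share Melanogenesis. HGF, MET and KITLG share the MAPK, PI3K-Akt, Rap1 and Ras signaling pathways.

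Around these genes, 6 lists of partners were examined, with 62 genes in all, of which 47 were in the table and 34 passed the filter. Of the 34, 4 were called higher and 5 lower, shares of 11.8% and 14.7% that are near the 13.7% and 17.3% of all genes tested. Their median log₂FC was -0.24 against 0.04 for all genes tested. The counts of single lists below, where they use the limit of 1 on the absolute log₂FC, are to be read against the same 13.7% and 17.3%. KIT itself had no row under that name in the deposited table, so its level could not be given.

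In the list of HGF activation and MET signalling, 1 of 13 tested genes was called higher, 1 lower and 11 neither (median log₂FC -0.19). HGFAC, a serine protease that activates HGF, rose from 1.75 ± 0.423 to 3.70 ± 0.327 CPM (SD, n = 3 each, log₂FC 1.08, standard error 0.194, adjusted p = 5.90e-05). Its log₂FC was 0.93 without Control replicate 3 and 0.78 with R's t.test function, both short of the threshold. SHC1, an adaptor of receptor tyrosine kinases, fell from 316 ± 6.04 to 153 ± 3.41 CPM (log₂FC -1.05, standard error 0.0531, adjusted p = 1.79e-12), and its log₂FC was -0.97 with upper-quartile scaling and -0.57 with library size only. SPINT2, an inhibitor of the proteases that activate HGF, had 49.4 ± 4.21 and 25.5 ± 1.19 CPM (log₂FC -0.95), and PTPN11, a phosphatase that acts downstream of MET, had a log₂FC of -0.66. The transcription factor gene STAT3 had 134 ± 4.50 and 132 ± 5.33 CPM (log₂FC -0.02).

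Among adaptors of KIT, 2 of 6 tested genes were called higher and 0 lower (4 neither, median 0.17). Lower calls were also 0 with DESeq2 and at an unadjusted p under 0.05. With no limit on size 1 gene was lower, for which no share of all genes is given here. The docking protein gene GAB2 rose from 24.1 ± 1.20 to 58.6 ± 2.57 CPM (log₂FC 1.28, standard error 0.0716, adjusted p = 7.92e-12). SH2B2, a signalling adaptor, rose from 3.44 ± 0.213 to 8.17 ± 0.694 CPM (log₂FC 1.25, standard error 0.131, adjusted p = 7.98e-08). SH2B3, an adaptor that restrains KIT signalling, had 145 ± 4.54 and 88.6 ± 4.27 CPM (log₂FC -0.71).

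Of the 5 tested relatives and regulators of MITF, 0 were called in edgeR's test, with DESeq2 or with R's t.test function. At an unadjusted p under 0.05, with the same limit on size, 0 were called as well. With no limit on size 2 were higher and 2 lower, for which no share of all genes is given here. The MiT/TFE family member TFE3 had 95.9 ± 3.98 and 123 ± 1.57 CPM (log₂FC 0.36, standard error 0.0567), and TFEB had 10.4 ± 0.693 and 10.9 ± 0.924 CPM (log₂FC 0.06, adjusted p = 0.615). The transcription factor genes CREB1 and LEF1 had a log₂FC of 0.25 and -0.54. ASIP, a secreted antagonist of the melanocortin receptor that dermal papilla cells make, had 342 ± 21.3 and 185 ± 21.1 CPM (log₂FC -0.89, standard error 0.0743). Of the pigment genes that MITF controls in melanocytes, 3 were tested, of which 1 was called lower. OCA2, a melanosome transporter gene, had 15, 15 and 20 counts in the control libraries and 2, 6 and 6 with ATRA (log₂FC -2.23, standard error 0.477, adjusted p = 0.000335). PMEL and the lysosomal glycoprotein gene GPNMB had a log₂FC of -0.90 and -0.82. The call of OCA2 was lost with R's t.test function (log₂FC -0.46), and OCA2 was left out by a filter of 1 CPM in 3 libraries.

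The endothelin list had 2 tested genes, and both were called lower. MME, the cell-surface protease neprilysin that degrades endothelin-1 and other peptides, had 5079, 5276 and 5440 counts without ATRA and 59, 51 and 67 with it. Its level fell from 165 ± 3.47 to 1.38 ± 0.232 CPM (SD, n = 3 each, log₂FC -6.91, standard error 0.0955, adjusted p = 1.84e-20). ECE2, a relative of ECE1, fell from 70.3 ± 4.62 to 19.0 ± 0.611 CPM (log₂FC -1.89, standard error 0.0731, adjusted p = 2.88e-14). The 2 converting enzyme genes thus had log₂FC of opposite sign.

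Endothelin receptors signal through Gq proteins, phospholipase C-β and the release of stored calcium. Of 7 genes tested in this list, 1 was called higher, 1 lower and 5 neither (median -0.53). RGS2, which shortens Gq signals, had 2, 6 and 11 counts in the control libraries and 63, 69 and 76 with ATRA (log₂FC 3.00, standard error 0.378, adjusted p = 8.23e-07). The log₂FC of RGS2 was 3.64 without Control replicate 3, where it was highest among controls, 2.60 without Control replicate 1, and 1.13 with R's t.test function. The calcium channel gene ITPR3 fell from 2.67 ± 0.173 to 1.14 ± 0.253 CPM (log₂FC -1.23, standard error 0.220, adjusted p = 5.63e-05), but its log₂FC was -0.75 with library size only and -0.79 with R's t.test function, and neither was called. GNA11, a Gq-family subunit gene, had 93.3 ± 0.347 and 83.9 ± 2.71 CPM (log₂FC -0.15), and the phospholipase gene PLCB3 had 63.7 ± 2.92 and 33.5 ± 1.78 CPM (log₂FC -0.93).

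**Figure D4:**
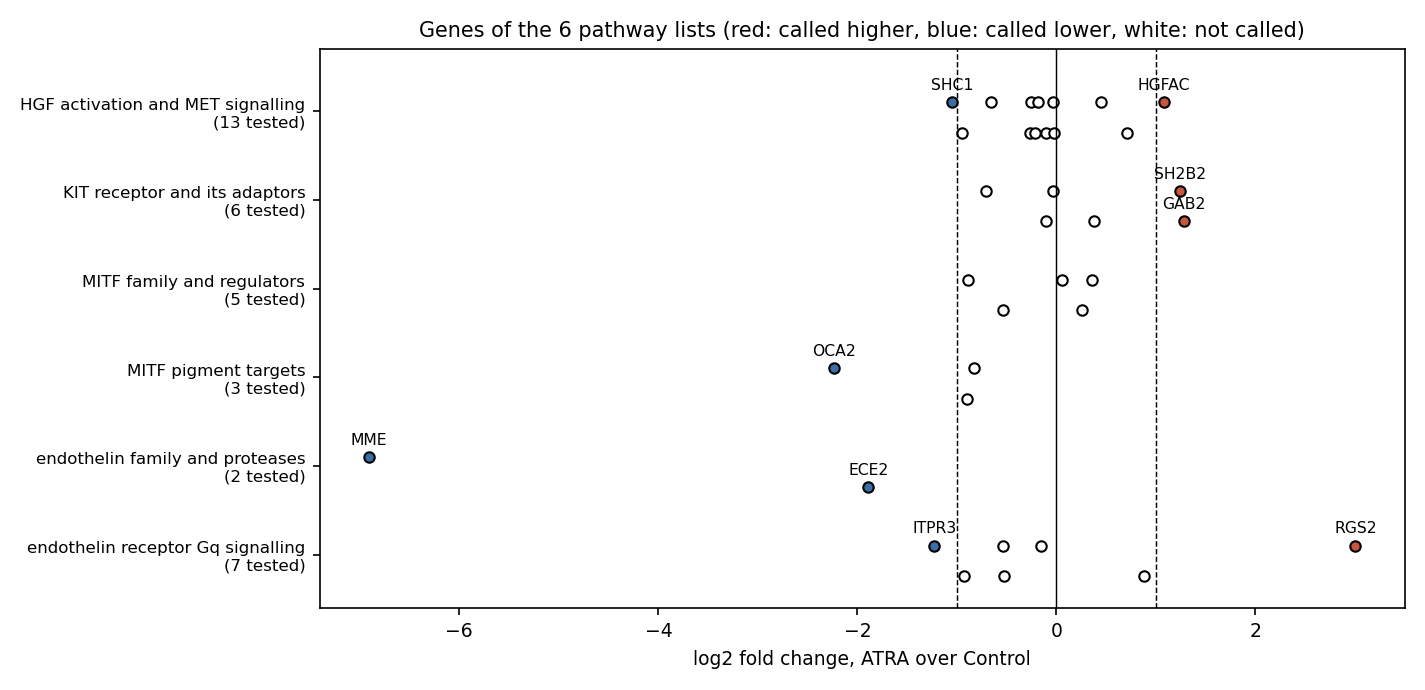
Log₂FC of ATRA over control (horizontal axis) for each tested gene of the 6 partner lists (rows), with called genes named and coloured and dashed lines at -1 and 1. MME at -6.91 and RGS2 at 3.00 lie farthest out, and 25 of the 34 genes, each counted once, were not called.

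For the 5 called genes, the nearest patterns among 10676 other genes were found by the distance between their 6 log2 CPM values, each centred on its mean. Nearest to HGF were SCN3A (distance 0.291, log₂FC -5.75) and DTL (0.444, log₂FC -5.72). Nearest to KITLG were NUSAP1 (0.282, log₂FC -4.58) and MYLK (0.365, log₂FC -4.30), and nearest to EDN1 were DLGAP5 (0.281, log₂FC -9.24) and IGF1 (0.339, log₂FC -8.82). EDNRA lay nearest to SYNPO2 (0.119, log₂FC -2.84) and NDE1 (0.140, log₂FC -2.78), and MITF to COL4A3BP (0.0916, log₂FC 1.37) and FLRT3 (0.108, log₂FC 1.39). With only 6 libraries in 2 well separated groups, a small distance goes with a similar log₂FC, except for EDN1. Its neighbours differ more from it in fitted log₂FC (-9.24 and -8.82 against -9.87) than their distances allow on that scale. The log2 CPM values behind the distances were thus not on the scale of the fit, and the match of EDN1 rests on 1 count in each ATRA library.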

How the data were processed

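Poly(A) mRNA was sequenced from 6 cultures. Reads were cleaned with fastp and TrimGalore, and the submitters' processing notes name HISAT2, featureCounts and DESeq2. The authors deposited read counts per gene, not normalized. The genome build, annotation and strand setting are not given in the sources used here. No member overlaps another gene in RefSeq's ARS1.2 assembly, and all 15944 names matched it.

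Genes passing edgeR's expression filter (12588) were scaled by TMM and tested with edgeR 4.0.16 in R 4.3.3 (quasi-likelihood, robust, no covariate, Benjamini-Hochberg over all genes tested). The prior count was 0.125, and each standard error was taken as |log₂FC| divided by √F. R's t.test function, named in the study's methods, was applied to log2(CPM + 1) for comparison. Of 14 alternatives per gene (13 for OCA2), 6 left out a library and the others changed scaling, filter, test (DESeq2 1.42.0) or pairing. Count ratios had 0.5 added and an exact permutation test. The tests were checked on simulated data.

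The members and lists were chosen with earlier results of these data known. Genes named beyond the members were, per list, up to 5 (called genes with the largest change, then uncalled genes with the highest level), and the 2 nearest patterns of each called member. SPINT2, the marker genes and the annotation-group genes of the closing observations were not all taken by this rule, and such genes were chosen after their values were seen. CPM are not per transcript length, so summed marker levels and the choice of genes by level weigh long transcripts more, and the levels of the 8 genes were not compared with each other. Sequences were not analysed here. The study describes 3 biological replicates per group, from 3 animals.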

Additional observations from a re-analysis of the deposited data

How the results depend on the processing

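The calls of HGF, KITLG, EDN1, EDNRA and MITF, and the lack of a call for MET, held in all 14 alternatives of each. ECE1 passed the threshold with library size only (log₂FC 1.19), so that 2 of the 7 tested genes were called higher there, as was also the case with no limit on size (2), and 0 were above a log₂FC of 2. With no limit on size 5 were called lower, MET among them, and 4 were below a log₂FC of -2. Shares of all genes tested are not given here at either of these limits, so these counts are not results about the 7 genes as a group. Without regard to size, the groups were fully separated in 39.0% of all genes tested with ATRA lower and in 41.2% with ATRA higher. Leaving out 1 library at a time kept the log₂FC of HGF between -6.26 and -5.54 and that of MET between -0.98 and -0.82. On the log2(CPM + 1) scale of R's t.test function, which understates changes of low levels, HGF was at -3.91 and KITLG at -3.76. The EDN1 to ECE1 ratio differed by -9.78 with 1 added to each count in place of 0.5, against -10.19. Of the partner genes, 1 was called higher above a log₂FC of 2 and 8 with no limit on size. For lower calls these numbers were 2 and 17, again without a share of all genes at those limits. With library size only, 6 of the 34 partner genes were called higher and 3 lower, and with R's t.test function 3 and 3. Across all 12588 genes tested, library size only gave 3389 higher and 1471 lower, 69.7% of calls higher against 44.3% with TMM. R's t.test function gave 1090 higher and 1818 lower across the same genes. The deviations of same-numbered libraries correlated at 0.0892, 0.0299 and -0.0764, so the numbers were not taken as pairs. A replicate block left 1 gene called higher and 4 lower of the 7, against 1724 and 2176 of all 12588 genes tested. The planned EDNRB to EDNRA ratio was not computed, since EDNRB had 2 counts or fewer in every library. Depth limits EDNRB and the size of the EDN1 change.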

Other observations

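Genes of 2 annotation groups of the deposited table, chosen with their example genes after the values were seen, were called in both directions, where 17.3% of all genes tested were called lower and 13.7% higher. Of 62 tested genes annotated with growth factor activity in GO, a group that includes HGF and KITLG, 18 were called lower (29.0%) and 19 higher (30.6%), with a median log₂FC of -0.20. BMP4, a bone morphogenetic protein, fell from 406 to 15.9 CPM (log₂FC -4.67), and the chemokine gene CXCL12 fell from 17.0 to 0.364 CPM (log₂FC -5.53). The angiogenic factor gene VEGFA rose from 177 to 1095 CPM (log₂FC 2.63) and the cytokine gene IL6 rose to 98.7 CPM (log₂FC 2.71). Of 69 tested genes in the KEGG Melanogenesis pathway, a group of ligands, receptors and transcription factors that includes KITLG, MITF and EDN1, 20 were called lower (29.0%) and 10 higher (14.5%, near the share of all genes), with a median log₂FC of -0.38.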
